A study of Saccharomyces cerevisiae with 8 samples.

Results

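AHP1, TRX2, MXR1 and SOD1 are 4 budding yeast genes of defence against oxidative damage, and their transcript levels were compared between a strain lacking SUB1 and its wild type, before and after a DNA-damaging agent. They were taken by symbol from the spots to which the platform annotation gives exactly 1 gene symbol, which cover 3127 genes among 5999 features, and each had 1 spot. The 4 were selected on their measured strain ratios after treatment, so those ratios are given as a description, with no test. The untreated strain ratios were tested, with and without a spread shared with the 4NQO arrays.

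Cells that respire or meet redox-active compounds form superoxide, peroxides and oxidised protein side chains. Superoxide dismutases convert superoxide to hydrogen peroxide, peroxiredoxins reduce peroxides, and methionine sulfoxide reductases repair oxidised methionine. Peroxiredoxins and methionine sulfoxide reductases take their electrons from thioredoxin, which thioredoxin reductase recharges with NADPH. In budding yeast the transcription factor Yap1, partly together with Skn7, induces many genes of this system, TRX2 and AHP1 among them.

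The groups were sub1Δ cells treated with 4-nitroquinoline 1-oxide (4NQO), wild-type cells treated the same way, untreated sub1Δ cells and untreated wild-type cells. The wild type was yPH500. 4NQO forms bulky DNA adducts and also gives rise to oxidative stress. It was added at 1 µg/µl, as the labels write the dose, to exponential cultures in rich YPD medium, and cells were taken 1 h later, while the untreated cells were taken at time zero. The labels do not say whether sub1Δ was 1 clone or several. Each of the 8 arrays carried sub1Δ and wild-type RNA of 1 condition, 1 strain in each dye, so each value is a log2 ratio of sub1Δ over wild type. Each condition had 2 experiments, and each experiment was hybridised on 2 arrays, one with wild type in Cy3 and sub1Δ in Cy5 (the direct array) and one with the dyes exchanged (the swapped array). No array set treated against untreated cells, so neither strain's own response to 4NQO was measured, and 4NQO cannot be told apart from the added hour.

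The arrays held between 2982 and 5950 spot values of 6216 spots, with the fewest on the swapped array of 4NQO experiment 2. Median log2 ratios of sub1Δ over wild type lay between -0.66 and -0.14 on the 4NQO arrays and between -0.21 and 0.0075 on the untreated arrays. Across features, direct and swapped arrays correlated with Pearson r of 0.26 and 0.33 in the 4NQO experiments, and of 0.20 and -0.20 in the untreated experiments (Spearman rho for the last, 0.052). The 2 experiments of a condition correlated at r = 0.51 with 4NQO and 0.14 in untreated cells. These correlations run across features, which are not independent replicates. No spot named SUB1, so the deletion itself was not checked here and the direction of every ratio rests on the dye labels. The number of arrays limits the precision. With 2 experiments a condition, p-values rest on the spread between experiments, pooled over both conditions and moderated towards that of all features. They measure no spread beyond these experiments.

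After 4NQO the mean ratio of sub1Δ over wild type was above 1 for all 4 genes, from 2.76-fold for SOD1 to 5.68-fold for AHP1. In untreated cells the means of the 3 genes with values in both experiments lay near or below 1, from 0.771-fold for SOD1 to 1.00-fold for MXR1, and none of them passed the test. The 4 genes did not share 1 pattern with 4NQO: AHP1 was high in experiment 1 and SOD1 in experiment 2. If the swapped arrays had already been turned before deposit, the 4NQO log2 ratios would be 0.063 for AHP1, -0.28 for TRX2, -0.94 for MXR1 and -0.44 for SOD1. The direction thus depends on the arrays having been deposited as Cy3 over Cy5. With the sign taken here, dye-swap partners correlated across features at Pearson r of 0.26 and 0.33 with 4NQO. In untreated cells r was 0.20 and -0.195. Under the alternative each r would change sign. Which sign was deposited was not tested. In a culture, a change in every cell and a change in part of the cells cannot be told apart.

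AHP1 (YLR109W) encodes a peroxiredoxin that reduces alkyl hydroperoxides. With 4NQO its log2 ratio was 5.12 and 4.18 on the direct and swapped arrays of experiment 1, and 0.015 and 0.70 on those of experiment 2. In untreated cells it was -0.87 and -0.098 in experiment 1, and 0.29 and -0.45 in experiment 2. Experiment 1 with 4NQO thus stood far above all other arrays, while the lowest 4NQO value lay within the untreated range. Its 4NQO mean was 2.51 ± 3.04 (SD, n = 2 experiments), with 4.65 in experiment 1 and 0.36 in experiment 2, so the SD exceeded the mean. The gap between the experiments, 4.29, compares with a median gap of 0.94 over the 2194 features measured in both. The gaps between its dye-swap partners, 0.94 and 0.69, were smaller than the feature medians of 1.06 and 1.19.

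TRX2 (YGR209C) encodes a cytosolic thioredoxin, the electron donor of peroxiredoxins. Its log2 ratio with 4NQO was 2.53 and 2.10 on the direct and swapped arrays of experiment 1, and 0.59 and 2.14 on those of experiment 2. In untreated cells it had no value on the direct array of experiment 1, 0.23 on the swapped one, and -0.23 and -0.19 in experiment 2. Every 4NQO value was above every untreated value, which held for 1 of the 4 genes and for 5.4% of the 4056 features with at least 3 arrays a condition. With swapped arrays taken as already turned it held for 0 of the 4 genes and 1.58% of these features. The 4NQO mean was 1.84 ± 0.67 (SD, n = 2), or 3.58-fold, with experiments at 2.31 and 1.37.

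MXR1 (YER042W) encodes the reductase for the S form of methionine sulfoxide. With 4NQO its log2 ratio was 1.60 and 1.81 on the direct and swapped arrays of experiment 1, and 0.079 and 3.65 on those of experiment 2. In untreated cells it was -0.038 and 0.38 in experiment 1, and -0.22 and -0.13 in experiment 2. The untreated values were the tightest of the 3 genes with 4 untreated arrays, and 1 of the 4NQO values fell inside them. The experiment means with 4NQO, 1.70 and 1.86, gave 1.78 ± 0.11 (SD, n = 2), but the small SD hid a gap of 3.57 between the dye-swap partners of experiment 2, where the median gap over features was 1.19. The higher of these values came from the sparsest array, and without that array the mean was 0.89.

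SOD1 (YJR104C) encodes the copper- and zinc-dependent superoxide dismutase of the cytosol. Its log2 ratio with 4NQO was -0.20 and 1.29 on the direct and swapped arrays of experiment 1, and 2.25 and 2.52 on those of experiment 2. In untreated cells it was 0.046 and -0.072 in experiment 1, and 0.31 and -1.79 in experiment 2. It was the gene of the 4 with a value below 0 on a 4NQO array, and the lowest untreated value stood apart from the others. The 4NQO mean was 1.47 ± 1.30 (SD, n = 2), with 0.54 in experiment 1 and 2.39 in experiment 2. AHP1, TRX2 and MXR1 were above 0 on all 4 of their 4NQO arrays, as were 13.2% of features with 4 values. With swapped arrays taken as already turned this was so for 0 of the 4 genes and 3.56% of features.

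**Figure D1:**
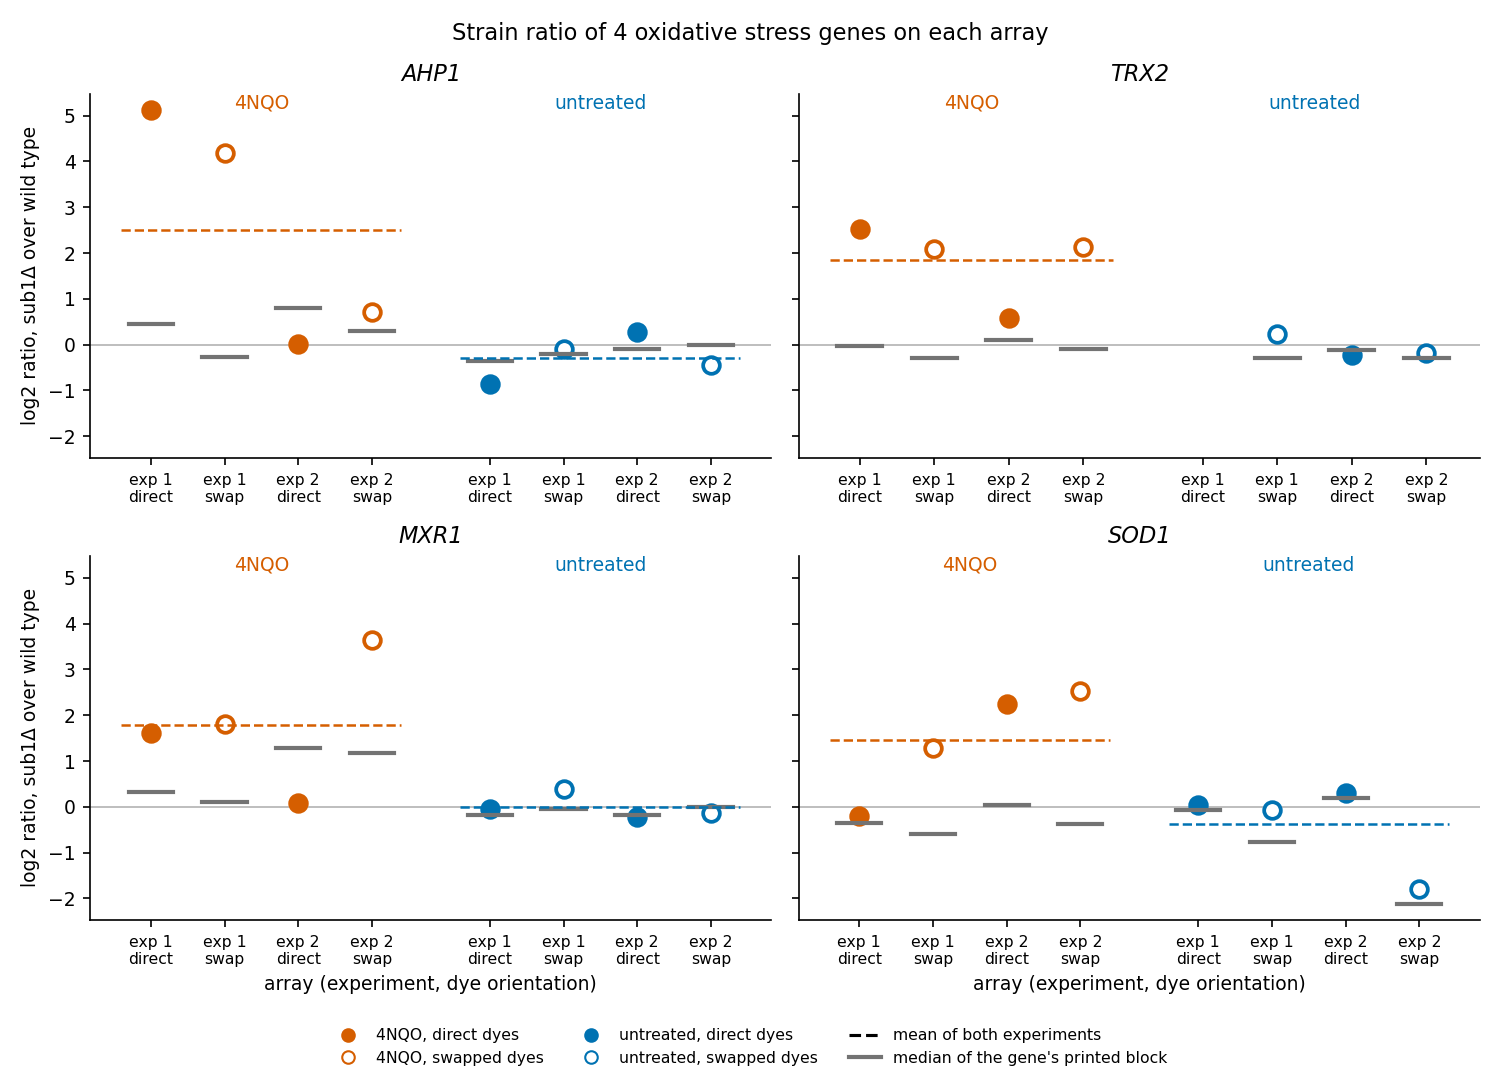
Log2 ratio of sub1Δ over wild type for AHP1, TRX2, MXR1 and SOD1 (vertical axis) on each array (horizontal axis, 4NQO left, untreated right), with filled points for direct and open points for swapped arrays, dashed lines for the mean of both experiments and grey bars for the median of the gene's printed block. AHP1 reaches 5.12 and 4.18 in 4NQO experiment 1 and 0.70 at most in experiment 2, while the untreated points of all 4 genes lie between -1.79 and 0.38.

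In order of the 4NQO ratio, experiment 1 ran AHP1 (4.65), TRX2 (2.31), MXR1 (1.70) and SOD1 (0.54). In experiment 2 the order was the opposite, SOD1 (2.39), MXR1 (1.86), TRX2 (1.37) and AHP1 (0.36), all as log2 ratios. No pair of 4NQO means lay farther apart than the SD of AHP1 or that of SOD1. The highest mean, that of AHP1, rested on the 2 arrays of 1 experiment. Over the arrays that 2 genes shared, the 6 pairs correlated with Pearson r between 0.098 (AHP1 with SOD1, 8 arrays) and 0.84 (TRX2 with MXR1, 7 arrays). The points share RNA between dye-swap partners and an array median that differs between conditions. All 4 genes were also selected on their 4NQO ratios, which by itself can raise these r values.

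The untreated strain ratio was tested with limma over all 3457 features that had both dye-swap means. None of the 3 tested members passed at a Benjamini-Hochberg adjusted p of 0.05, and none had an unadjusted p under 0.05, where 1 feature in all (0.0289%) was called and 5.73% had such an unadjusted p. The log2 ratio of AHP1 was -0.28 ± 0.28 (SD, n = 2; limma adjusted p = 0.98), with a 95% interval from -1.84 to 1.28. SOD1 was at -0.38 ± 0.51 (adjusted p = 0.97), with an interval from -1.63 to 0.88. Without the swapped array of untreated experiment 2, an alternative chosen after seeing the data, SOD1 was at 0.15 (limma adjusted p = 0.99). That array's correlation with its partner was negative by Pearson r (-0.195) but not by Spearman rho (0.052). MXR1 was at -0.000345 ± 0.24 (adjusted p = 1.00), with an interval from -1.16 to 1.16. The spread behind these values is pooled over both conditions, so it includes the 4NQO values that chose the genes. With the untreated experiments fitted alone, the 95% intervals ran from -1.38 to 0.81 for AHP1, from -1.47 to 0.72 for SOD1 and from -1.10 to 1.10 for MXR1. The limma adjusted p was then 0.94 for AHP1, 0.92 for SOD1 and 1.00 for MXR1. TRX2 lacked a dye-swap mean in experiment 1 and was not tested. When 1 array of a pair was allowed to stand alone it was at 0.013 (adjusted p = 1.00).

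The difference of the log2 strain ratios, 4NQO minus untreated, was 2.79 for AHP1, 1.84 for SOD1 and 1.78 for MXR1. It shares its 4NQO values with the choice of the genes and is given without a test. The labels do not link an experiment of one condition to an experiment of the other, so no difference is given by experiment.

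Because array medians differed, each gene was also placed among the features of its own array, a rank that does not move with centring or scaling of the array. AHP1 ranked at the 99.6 and 98.6 percentiles in 4NQO experiment 1 and at 63.9 and 73.9 in experiment 2, against a median of 44.0 (24.8 to 67.3) on the untreated arrays. TRX2 ranked between 75.1 and 95.3 with 4NQO and between 34.8 and 64.4 in untreated cells. MXR1 ranked between 65.3 and 96.7 with 4NQO and between 35.5 and 68.5 in untreated cells. SOD1 ranked at 47.6 on the direct array of 4NQO experiment 1 and between 87.1 and 93.6 on the other 4NQO arrays, against 11.6 to 68.8 in untreated cells. Median ranks with 4NQO lay close together, from 86.2 for AHP1 to 90.9 for TRX2; within the printed block they ran from 76.2 for AHP1 to 89.3 for TRX2. With swapped arrays taken as already turned, an alternative chosen after seeing the data, the median 4NQO ranks were 45.0 for AHP1, 43.0 for TRX2, 36.9 for MXR1 and 30.2 for SOD1. The low 4NQO values of AHP1 and MXR1 on the direct array of experiment 2, near 0, were still above that array's median of -0.54.

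**Figure D2:**
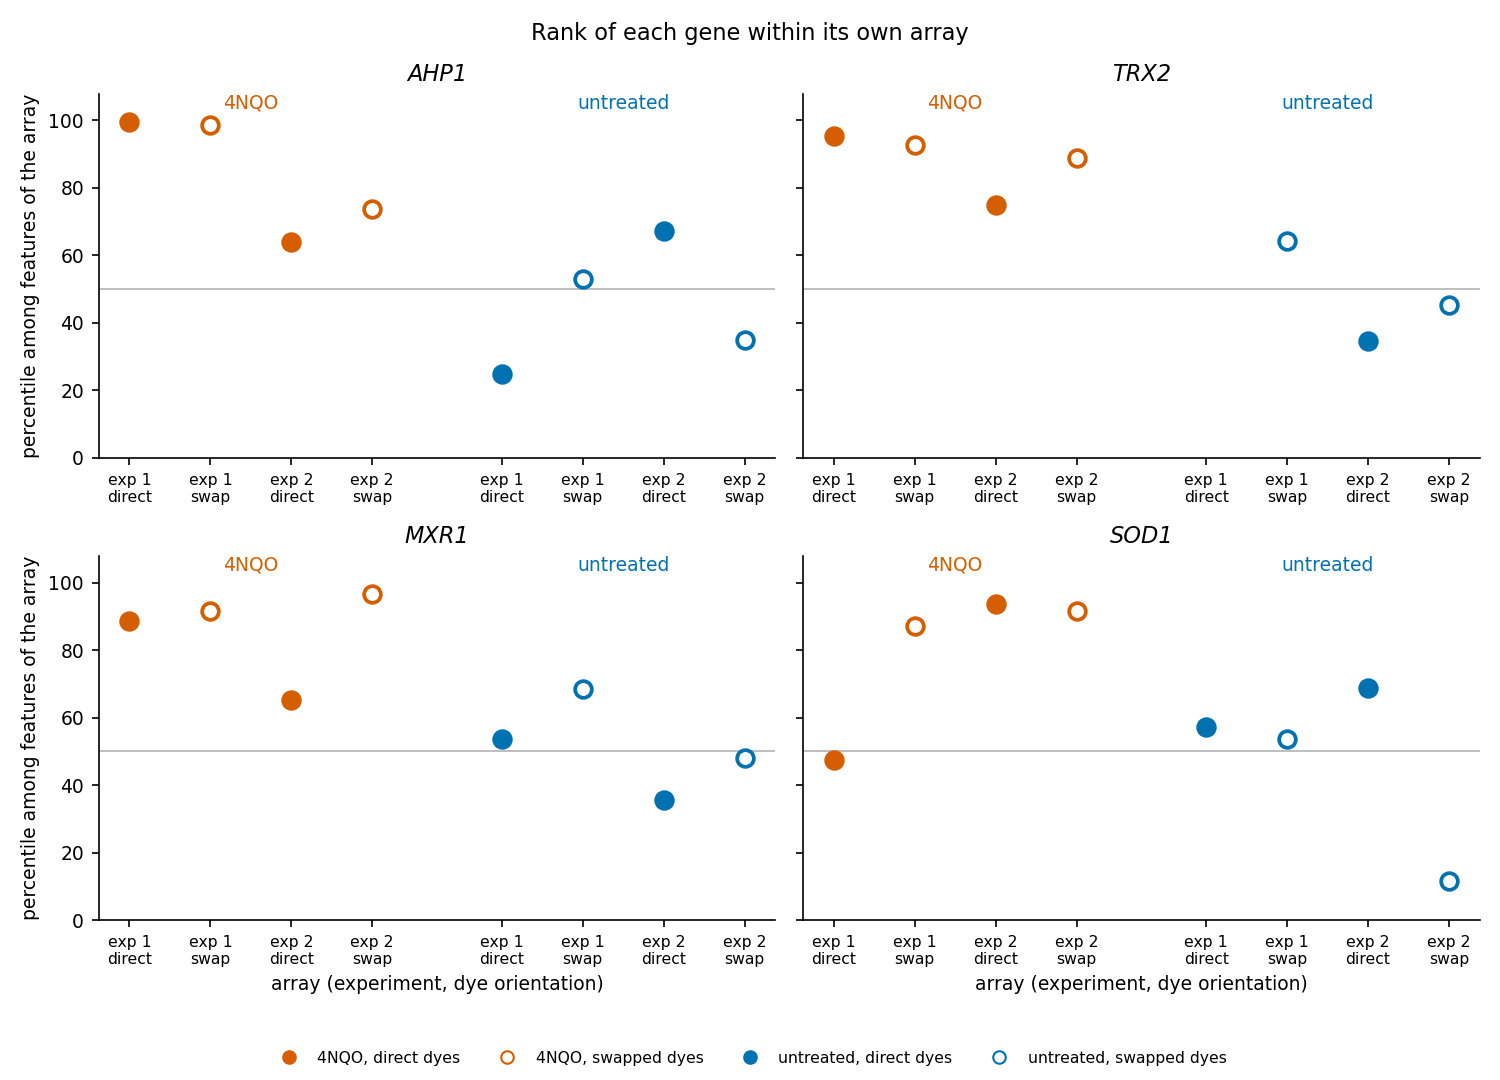
Percentile of AHP1, TRX2, MXR1 and SOD1 among the features measured on the same array (vertical axis, the grey line marks the array median) for each array (horizontal axis, 4NQO left, untreated right), with filled points for direct and open points for swapped arrays. Of the 4NQO points, that of SOD1 on the direct array of experiment 1 (47.6) lies below the array median, and untreated points lie on both sides of it.

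Printed position moved with some of these values. The spots of AHP1, TRX2, MXR1 and SOD1 lie in blocks 4, 6, 8 and 1 of the 48 printed blocks. MXR1's block had medians of 1.28 and 1.17 on the arrays of 4NQO experiment 2, so that its value of 0.079 there ranked at the 25.6 percentile of the block. SOD1's block had a median of -2.11 on the swapped array of untreated experiment 2, and the gene's -1.79 there ranked at the 60.8 percentile of the block. AHP1's block had a median of 0.81 on the direct array of 4NQO experiment 2, where AHP1 itself ranked at 37.1. With every block centred on its own median, the 4NQO log2 ratio was 1.06 for MXR1 and the untreated log2 ratio was 0.31 for SOD1.

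Other redox genes were taken from 84 names in 8 groups, drawn up with earlier results of these data known. Of these names 49 had a single-symbol spot, 32 could be tested in untreated cells and 18 with 4NQO. In untreated cells 0 of 32 passed limma's test and 0 had an unadjusted p under 0.05. With 4NQO, 2 passed as higher in sub1Δ, 0 as lower and 16 did not pass, against 9.07% of all features called higher and 10.4% called lower. An unadjusted p under 0.05 was found for 6 of the 18 and for 37.5% of all features. The 18 genes had a median log2 ratio of -0.31, beside -0.56 over all 2194 features tested. The median of 1.81 over AHP1, TRX2, MXR1 and SOD1 is no fair comparison, since these 4 were selected on those ratios. The difference between conditions was called for 0 of the 18 (limma, 2 at an unadjusted p under 0.05) and for 0% of 1654 features, of which 13.7% had such an unadjusted p.

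Among thioredoxin and peroxiredoxin genes, TRX1, the paralog of TRX2, was above 0 on all 8 arrays. Its log2 ratio was 3.13, 1.01, 0.37 and 0.94 on the 4NQO arrays (experiment 1 direct and swapped, then experiment 2), against 0.67, 0.44, 0.33 and 0.58 on the untreated arrays in the same order. The 4NQO mean, 1.36 ± 1.00 (SD, n = 2), did not pass (limma adjusted p = 0.097), nor did the untreated mean of 0.50 ± 0.072 (adjusted p = 0.97). TRX1 and TRX2 are similar in sequence, and spotted open reading frames may not tell them apart. DOT5, a nuclear peroxiredoxin gene, was at 0.42 with 4NQO and 0.55 in untreated cells. TRR2, the mitochondrial thioredoxin reductase gene, was at -0.59 with 4NQO and -0.27 in untreated cells, and neither gene passed. TRR1, the cytosolic reductase gene, was not tested with 4NQO, and its values there were 3.37 and -1.54 in experiment 1 and -0.26 on the direct array of experiment 2.

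Both calls with 4NQO fell in the group of enzymes that can draw electrons from thioredoxin. The group takes each enzyme whole, so it does not say that every subunit takes up these electrons. The groups were drawn up with earlier results of these data known, so these calls are no independent support for that group. RNR2 and RNR4 encode the small subunit proteins of ribonucleotide reductase and were at log2 ratios of 2.46 ± 0.092 (SD, n = 2; limma adjusted p = 0.010) and 2.71 ± 0.23 (adjusted p = 0.0078), against 0.66 ± 0.17 and 0.92 ± 0.77 in untreated cells, where neither passed. With each condition fitted alone, the limma adjusted p with 4NQO was 0.047 for RNR2 and 0.034 for RNR4. With array medians centred it was 0.024 for each. RNR2 was at 1.09 and 3.71 on the direct and swapped 4NQO arrays of experiment 1 and at 1.59 and 3.47 on those of experiment 2. RNR4 was at 0.31 and 4.78 in experiment 1 and at 2.40 and 3.35 in experiment 2. Both were above 0 on 4 of 4 4NQO arrays, with the swapped array the higher each time, and the experiment SDs do not carry the gaps between dye-swap partners, 2.62 and 1.88 for RNR2 and 4.47 and 0.96 for RNR4. Neither was called when only features with values on all 8 arrays were used, when 1 array of a pair could stand alone, without the sparsest array, or with swapped arrays taken as already turned. MET16, whose product reduces activated sulfate with thioredoxin, was at 1.47 ± 0.52 with 4NQO (adjusted p = 0.076) and 0.045 ± 0.91 in untreated cells. With blocks centred MET16 and TRX1 passed too (adjusted p = 0.027 and 0.018).

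Around SOD1, none of the 7 genes listed for superoxide and peroxide removal could be tested with 4NQO. SOD2, the mitochondrial manganese enzyme's gene, had 4NQO values of 1.18 and 1.56 in experiment 1 and 3.23 on the direct array of experiment 2, and an untreated mean of -0.020. Other genes of this list went the other way. GPX2, read with 4NQO on the direct arrays alone, was at -0.68 and -0.17. On the arrays that read SOD2 with 4NQO, CCP1 was at -1.75, -1.96 and -1.83, and GPX1 at -2.19, -1.64 and -2.28. CCS1, the gene of the copper chaperone that loads Sod1, had 4NQO values of 1.79, -2.74 and 0.69 on the same arrays. The copper genes tested with 4NQO did not pass. They were CUP2, a copper-activated transcription factor gene, at -0.61, ATX1, a copper chaperone gene, at -0.58, and CTR1, a copper transporter gene, at -0.35, against -0.0081, -0.18 and 0.81 in untreated cells. Over all features tested the median was -0.56 with 4NQO and 0.015 in untreated cells. With 4NQO, CUP2 and ATX1, as well as TRR2, lay near that median, and CTR1 lay above it.

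Of the genes that supply NADPH, GND2, a 6-phosphogluconate dehydrogenase gene, was at 0.90 with 4NQO and 0.60 in untreated cells. RPE1, a pentose phosphate epimerase gene with 2 spots, was at -1.08 with 4NQO and -0.27 in untreated cells. UTR1, an NAD kinase gene, was at -1.61 ± 2.69 (SD, n = 2) with 4NQO, with experiments at 0.29 and -3.51, and at 0.25 in untreated cells. None of the 3 passed with 4NQO (limma adjusted p between 0.11 and 0.24), although UTR1 was called lower with blocks centred (adjusted p = 0.034). Without 4NQO experiment 1, UTR1 was at -3.51, which rests on 1 experiment. Its arrays there read -1.66 and -5.37, the lower on the sparsest array. GRX6, the glutaredoxin gene tested in both conditions, was at -0.27 with 4NQO, above the median of -0.56 over all features, and at -8.0e-05 in untreated cells. GRX2, the main dithiol glutaredoxin gene, was read on 3 of the 4NQO arrays, at 2.71 and 1.77 in experiment 1 and 0.25 in experiment 2, and was not tested. Genes of its list read on the same 3 4NQO arrays, also not tested, did not share these values. GRX7 was at 2.84, -2.40 and -1.10, GTO1 at -1.08, -1.26 and -1.58, and GTO3 at -1.03, -0.98 and -3.49. Among the remaining redox genes GRE2, a methylglyoxal reductase gene, was at 1.15 with 4NQO, RFS1, of the flavodoxin-like family, at -1.15 and FLR1, a multidrug transporter gene under Yap1, at -1.89 (adjusted p = 0.055), against 0.11, -0.32 and -0.67 in untreated cells. FLR1 was called lower with spots taken singly (limma adjusted p = 0.032). Without 4NQO experiment 2, FLR1 was at -2.84, which rests on 1 experiment.

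**Figure D3:**
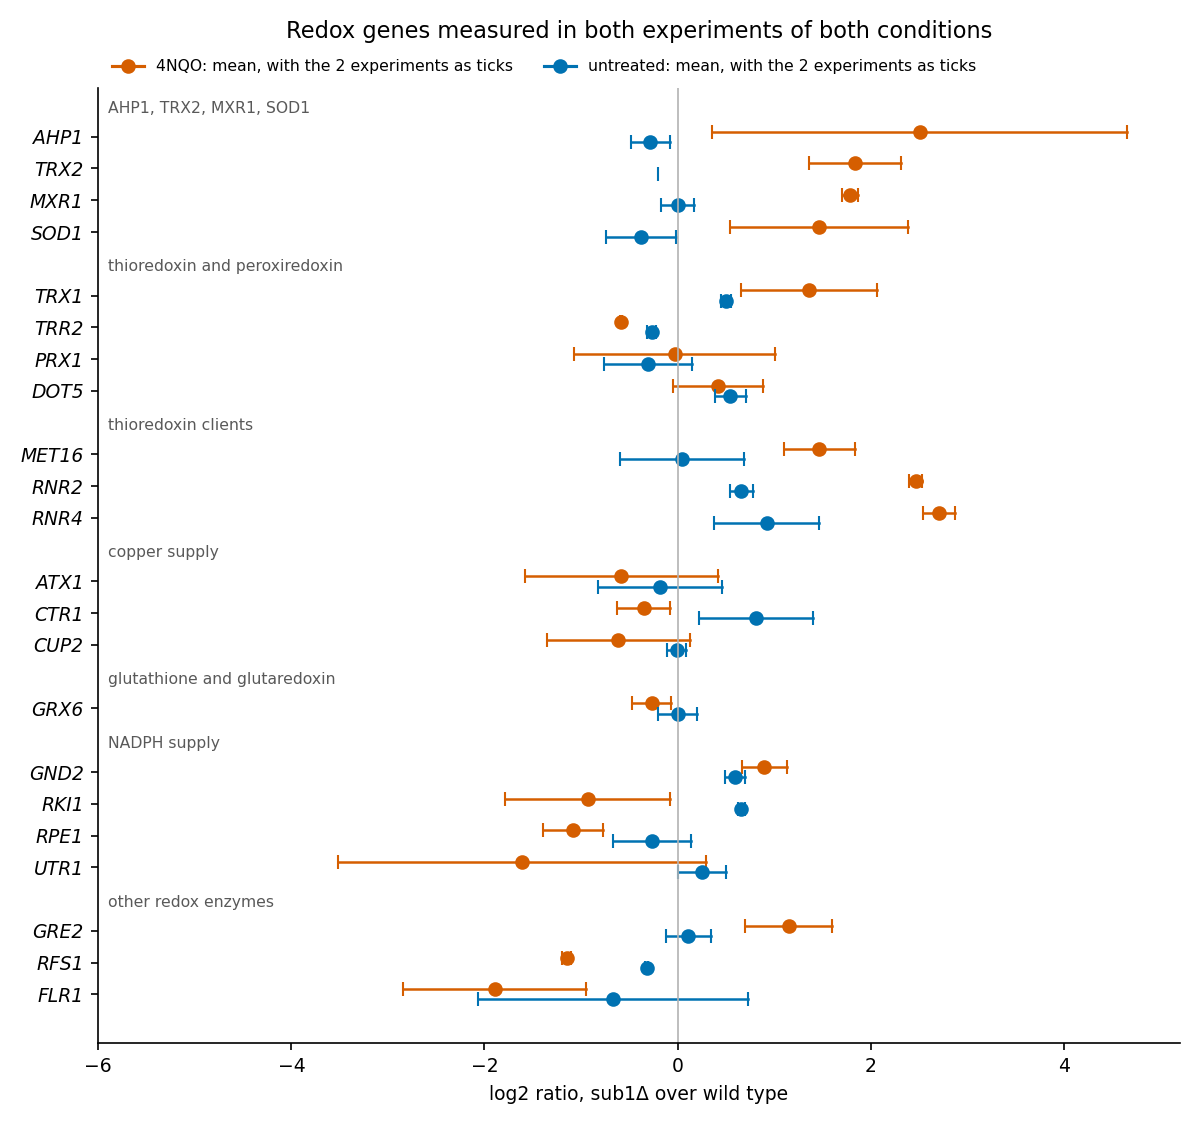
Log2 ratio of sub1Δ over wild type (horizontal axis) for AHP1, TRX2, MXR1, SOD1 and the 18 other redox genes tested in both conditions (vertical axis, by group), with the mean as a point and the 2 experiments as ticks joined by a line, 4NQO in orange above untreated in blue. The 4NQO experiment means of AHP1 span 0.36 to 4.65, those of RNR2 and RNR4 lie near 2.46 and 2.71 (each averages dye-swap partners, which for RNR4 in experiment 1 were 0.31 and 4.78), and TRX2 has 1 untreated experiment.

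The genes most like each member were sought among 946 single-symbol genes with a value on all 8 arrays (947 for TRX2, compared over its 7 arrays), by Pearson r of the log2 ratios. Nearest to AHP1 were the ribosomal protein genes RPL39 (r = 0.97) and RPL11A (0.96) and the methyltransferase gene SAM4 (0.94). RPL11A stood at 4.44 and 3.85 in 4NQO experiment 1 and at 0.54 and 1.28 in experiment 2. Nearest to TRX2 were ACP1, a mitochondrial acyl carrier gene (0.97), RPS29B (0.96) and RPL31A (0.95), both ribosomal protein genes. Nearest to MXR1 were YRF1-2 (0.97), of a repeated subtelomeric family that a spot may not tell apart, CCT5, a chaperonin gene (0.96), and RPG1, a translation initiation factor gene (0.96). CCT5 stood at -0.46 and 4.32 on the direct and swapped arrays of 4NQO experiment 2. Nearest to SOD1 were SSP120 (0.92), VMA11, of the vacuolar proton pump (0.92), and SHB17 (0.89), which like SOD1 were higher in 4NQO experiment 2 than in experiment 1. No gene stood among the nearest of 2 members. These r values over few arrays are the highest of many and carry no p.

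None of the 4 genes overlaps another gene in the RefSeq table, and the protein-coding gene on either side of each was looked up. Beside AHP1, CCW12, a cell wall mannoprotein gene, had 4NQO log2 ratios of 3.93 in experiment 1 and 0.92 in experiment 2. Beside MXR1, SAH1, which encodes S-adenosylhomocysteine hydrolase, had 1.24 and 3.14. Both passed limma's test with 4NQO (adjusted p = 0.021 and 0.023), where 9.07% of all features were called higher. Neither was called in the settings that left RNR2 and RNR4 uncalled, where no feature passed. Beside SOD1, ADO1, an adenosine kinase gene, had 0.42 and -0.50 and did not pass. The other neighbours lacked the values for a 4NQO test, among them SER2 beside TRX2, at -0.35 in experiment 1.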

How the data were processed

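RNA of sub1Δ and wild-type yeast was hybridised to spotted open reading frame arrays. The authors scanned them, subtracted background, applied LOWESS normalisation (smooth parameter 0.33, per the series' design text) and deposited log2 ratios of Cy3 over Cy5. The submitters' processing notes name limma 2.12.0. The labels do not state if the sign of swapped arrays had been turned, nor the reason for absent values. Intensities were not used here, so detection could not be judged. Direct arrays were multiplied by -1 to give sub1Δ over wild type.

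Of 6216 spots, 3344 had 1 gene symbol, 387 several and 2485 none. Old symbols were replaced by those RefSeq lists for R64, found for 3343 spots. Spots of 1 gene were averaged. No array build is given, so no coordinates are printed.

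Dye-swap partners were averaged where both had a value, giving n = 2 experiments a condition. With limma 3.58.1 in R 4.3.3, a linear model on the 4 means gave the ratio of each condition and the difference between conditions, using a shared, moderated spread (prior degrees of freedom 16.8), 2-sided tests and Benjamini-Hochberg adjustment over all features. For a feature measured in 1 condition only, that condition alone gave the unmoderated spread. The procedure was tested on simulated data. The members and lists were chosen with earlier results of these data known. Besides the members, genes were named by rule: in each list those that passed and up to 3 tested in both conditions with the smallest 4NQO p, and for each member the 3 genes of highest r. SOD2, CCS1, TRR1 and GRX2 were named for their roles and the neighbours for their position, after their values were seen. CCP1, GPX1, GPX2, GRX7, GTO1 and GTO3 were named beside SOD2 and GRX2 from the same lists, also after their values were seen. The alternatives tried were centring, scaling, dye orientation, missing values, samples in the fit, spots taken singly, experiments left out and a block for the experiment.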

Additional observations from a re-analysis of the deposited data

Results flagged for a closer look

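Of 39 sets of 4 arrays examined for the members and the genes named by rule from the lists, 1 held an array far from the others. UTR1 in untreated cells read -0.55 on the direct array of experiment 1, against 0.47 to 0.56 on the other 3 arrays. Chance flags about 1 in 20 such sets.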

How the results depend on the processing

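The untreated log2 ratio of AHP1 kept its sign under all 14 alternatives run (-0.48 to -0.0073). Several of these could not change it and left it at -0.28, such as those that left out 4NQO arrays. Neither AHP1, MXR1 nor SOD1 was called under any. MXR1, at -0.000345, was 0.10 with array medians or with spot blocks centred, 0.051 with arrays scaled to a common spread, and -0.17 and 0.17 at the extremes of leaving out an experiment. SOD1 was 0.31 with blocks centred, 0.55 with swapped arrays taken as already turned and 0.15 without the swapped array of untreated experiment 2, an alternative chosen after seeing the data. TRX2 had a value only where 1 array of a pair could stand alone, 0.013 in untreated cells and 1.83 for the difference. With 4NQO, swapped arrays taken as already turned gave -0.28 for TRX2, -0.94 for MXR1 and -0.44 for SOD1, and differences of -0.82 for MXR1 and -0.99 for SOD1. MXR1 moved to 2.24 with medians centred, 1.06 with blocks centred and 0.89 without the sparsest array, and its difference to 2.14, 0.96 and 0.89. The cause of these shifts was not tested. No other reversal was seen for the 4 genes, and median ranks within the printed block or among single-symbol genes moved by less than the SD over arrays. With swapped arrays taken as already turned, chosen after seeing the data for ranks, the median 4NQO ranks were 45.0 for AHP1, 43.0 for TRX2, 36.9 for MXR1 and 30.2 for SOD1.

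Over all features, untreated calls (0 higher, 1 lower) were 1 and 24 with arrays scaled, 1 and 2 with blocks centred, 4 and 38 with each condition fitted alone, 1 and 7 with spots taken singly, and 1 and 0 with swaps taken as turned. The 1 lower call became 0 with medians centred, with features on all 8 arrays, with arrays standing alone, without the sparsest array and without the swapped array of untreated experiment 2. Leaving out an experiment left 1 experiment in that condition, so counts of calls are not given for those fits. The 4NQO calls (199 higher, 229 lower) were 195 and 17 with medians centred, 129 and 28 with arrays scaled, 284 and 124 with blocks centred, 51 and 43 fitted alone, and 0 and 0 with features on all 8 arrays, arrays standing alone, swaps taken as turned or no sparsest array. Leaving out an experiment gave 51 to 172 higher and 43 to 166 lower. Centring the medians thus changed the number called lower far more than the number called higher. For the difference, 2 features were called higher with blocks centred, and leaving out an experiment gave 0 to 45 higher and 0 to 18 lower.

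Of the other listed genes with 4NQO (2 higher, 0 lower), 4 were called higher and 1 lower with blocks centred and 1 lower with spots taken singly. The 2 higher calls became 0 in the 4 settings without calls named above. With the experiment as a replicate block, 0 features were called for the difference, as without it. The labels do not number the experiments across conditions. With no intensities used here, what low signal limits could not be judged.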
